A study of Homo sapiens with 45 samples.

Results

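The genes described here are 10 genes of the cellular response to low oxygen and of glycolysis: VEGFA, SLC2A1, HK2, PGK1, ENO1, LDHA, PDK1, BNIP3, NDRG1 and CA9. They were chosen by name from a list of textbook targets of the hypoxia-inducible factors (HIF) and followed by their probe sets, the groups of oligonucleotides that measure 1 transcript on an Affymetrix array. Of the 10, 9 had a probe set under their name among the 19775 genes named here, and CA9 was not analysed here. Where a gene has several, its brightest probe set on average over all arrays stood for it. This main probe set had a median above the noise limit of the arrays (8.59 on the log2 scale of the intensities) for 8 of the 9 genes, as for 4800 of the 19775 genes. The exception was PDK1.

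The arrays hold RNA of A375 cells, an established human melanoma line, collected at 48 h. Of the 45 arrays, 39 are of cells transfected with a pool of siRNAs against 1 gene, 3 of cells transfected with control siRNA and 3 of untreated cells. The study carried out its transfections in 3 experimental batches. Batch KD1 held 9 arrays, after siRNA against CDC2, CDC25B, CDK7, CTNNB1, FOXO3A, HSF2, PCNA, RB1 and TCEA1. Batch KD2 held 23 arrays, after siRNA against ABL1, AKT1, CCNA2, CCNB1, CCND3, CDC16, CDC37, CDK4, CDKN2C, CEBPD, CEBPZ, CHEK1, FOXM1, GABARAP, HDAC2, HDAC3, MAP2K1, NMI, PIK3CB, RBL2, RELA, SP100 and STAT6. Batch KD3 held 7 arrays, after siRNA against CCNB2, ETS1, MCM2, MITF, PIAS1, SP1 and STAT3. Each siRNA was used in a single culture and each batch held different siRNAs, so a batch and its set of targets cannot be told apart. No group is labelled as grown in low oxygen. For the control siRNA and untreated arrays no batch is given, and none was inferred.

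When oxygen is short, prolyl hydroxylases no longer mark the HIF alpha subunits for destruction by the VHL protein, and the stable subunits pair with ARNT and switch on their target genes. Some targets send signals out of the cell, such as VEGFA, the main growth factor of blood vessels. Others take up glucose, run glycolysis to lactate and keep pyruvate out of the mitochondria, a shift that many tumours, melanoma included, also make with oxygen present. In such cells growth factor signalling through the PI3K and MAP kinase pathways is also known to raise HIF and its targets.

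Some properties of the arrays moved with the batches. The log2 difference between the 3' and 5' control probe sets of beta-actin, a measure of RNA integrity and labelling, had a median of 1.28 in KD1, 1.51 in KD2 and 0.58 in KD3, and its range in KD3 (0.51 to 0.66) did not overlap those of KD1 (1.01 to 1.76) and KD2 (1.09 to 2.08). The summed level of 8 melanocyte markers, on the log2 scale, was 12.30 to 12.55 in KD1, 11.69 to 12.02 in KD2 and 10.68 to 10.96 in KD3, with 4, 3 and 1 of the 8 above noise. SOX10 (-1.54), MITF (-1.93), S100B (-2.20) and S100A1 (-1.44) were lower in KD3 than in KD1 with no overlap. PMEL (-0.19), MLANA (0.059), TYR (-0.085) and TYRP1 (0.16), all with main probe sets under the noise limit, differed less. Markers of endothelial cells, fibroblasts and red blood cells had no main probe set above noise in any batch. Of 4 keratinocyte markers 1, KRT10, was above noise in every batch, and their summed log2 level was 11.10 to 11.47 in KD1, 11.13 to 11.43 in KD2 and 11.24 to 11.42 in KD3. Of 4 leukocyte markers 1, LYZ, was above noise in KD1 and none in KD2 or KD3, with summed log2 levels of 8.41 to 8.98, 7.80 to 8.97 and 7.26 to 7.88. KRT14 (-2.98), LYZ (-1.59) and the fibroblast marker LUM (-1.38) were lower in KD3 than in KD1 with no overlap. All batch means of KRT14 and LUM were under the noise limit. KRT10 was higher in KD3 than in KD1 (0.17) and PTPRC lower (-0.33). KRT5 (-0.12), KRT1 (-0.065), CD3E (-0.029) and CD14 (-0.075) differed less. The other fibroblast markers ran from -0.40 (COL1A2) to 0.33 (COL1A1). The target was lowest in its own array within its batch for all 37 targets with a gene name. The study selected siRNAs able to reduce their target mRNAs, so this count is no independent check.

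VEGFA showed the largest difference of the 9 genes between batches. Its log2 level ran from 8.64 to 9.18 in KD1 (median 9.05), from 8.69 to 9.97 in KD2 (median 9.26) and from 11.27 to 11.77 in KD3 (median 11.54). All 7 arrays of KD3 lay above every array of the other batches. The mean of KD3 was 5.73-fold that of KD1 (log2 difference 2.52 ± 0.11, SE, adjusted p = 6.5e-24) and 4.72-fold that of KD2 (2.24 ± 0.092, adjusted p = 1.7e-24) in limma over all probe sets. Here and below, p-values between batches measure the spread between arrays within batches, and each batch is present once. Ordered by this difference from the highest, VEGFA was at place 7 of the 4800 genes above noise in KD3 minus KD1 and at place 8 in KD3 minus KD2. All 4 probe sets of VEGFA were higher in KD3, by 1.58 to 2.52 on the log2 scale against KD1 and by 1.74 to 2.39 against KD2. The smaller difference of KD2 from KD1 depended on the probe set. It was 0.28 ± 0.083 by the main probe set (adjusted p = 0.0051), while 2 of the other probe sets were lower in KD2, at -0.16 (adjusted p = 0.020) and -0.38 (adjusted p = 3.5e-05).

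PDK1, the kinase that switches off pyruvate dehydrogenase, was the other gene with its highest level in KD3. Its log2 level ran from 7.28 to 8.16 in KD1 (median 7.77), from 7.81 to 8.96 in KD2 (median 8.29) and from 8.81 to 9.18 in KD3 (median 9.01). All arrays of KD1 and most of KD2 were under the noise limit and all of KD3 were above it, so KD3 and KD1 did not overlap. The differences were 1.32 ± 0.11 for KD3 minus KD1 (2.50-fold, adjusted p = 9.3e-14), 0.67 ± 0.097 for KD3 minus KD2 (1.59-fold, adjusted p = 1.1e-07) and 0.65 ± 0.088 for KD2 minus KD1 (1.57-fold, adjusted p = 4.7e-08). All 3 probe sets of PDK1 gave these 3 directions past the threshold. The order of the batch means of PDK1 was therefore KD1, KD2, KD3, with each neighbour past the test.

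NDRG1, a gene induced by hypoxia and other stresses, ran the opposite way. Its log2 level was 9.44 to 9.90 in KD1 (median 9.56), 8.60 to 9.61 in KD2 (median 9.18) and 8.54 to 8.85 in KD3 (median 8.76). The mean of KD3 was 1.89-fold lower than that of KD1 (-0.92 ± 0.11, adjusted p = 9.9e-10), with no overlap, and KD2 lay between them (KD2 minus KD1 -0.54 ± 0.085, adjusted p = 8.6e-07, and KD3 minus KD2 -0.37 ± 0.094, adjusted p = 0.00095). NDRG1 has a single probe set under its name.

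SLC2A1, which encodes the glucose transporter GLUT1, was lower in KD3 than in both other batches. Its log2 level ran from 8.41 to 8.91 in KD1, from 8.20 to 8.94 in KD2 and from 7.997 to 8.35 in KD3. KD3 was 1.39-fold lower than KD1 (-0.48 ± 0.079, adjusted p = 1.5e-06) and 1.43-fold lower than KD2 (-0.52 ± 0.068, adjusted p = 1.1e-08). KD2 minus KD1 was 0.041 ± 0.062 and did not pass the test (adjusted p = 0.63). The other probe set of SLC2A1 was also lower in KD3, at -0.37 and -0.34. The 7 arrays of KD3 lay under the noise limit, so the main probe set had its weakest signal there.

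Of the 4 glycolytic enzymes, LDHA, ENO1 and PGK1 had main probe sets far above the noise limit and small differences between batches, and HK2 was close to that limit. LDHA, which turns pyruvate into lactate, ran from 13.86 to 13.96 in KD1, from 13.69 to 13.91 in KD2 and from 13.49 to 13.65 in KD3. KD3 lay below both other batches without overlap, at a log2 difference of -0.33 ± 0.040 from KD1 (adjusted p = 8.8e-10) and -0.23 ± 0.034 from KD2 (adjusted p = 1.4e-07). KD2 was lower than KD1 by a smaller step (-0.10 ± 0.031, adjusted p = 0.0063).

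ENO1, which encodes an enolase, ran from 13.56 to 13.72 in KD1, from 13.57 to 13.78 in KD2 and from 13.42 to 13.48 in KD3 by its main probe set. This probe set was lower in KD3 than in KD1 (-0.20 ± 0.040, adjusted p = 2.7e-05) and than in KD2 (-0.24 ± 0.034, adjusted p = 1.0e-07). The 4 probe sets of ENO1 disagreed. In KD3 minus KD1 the next brightest gave -0.058 (adjusted p = 0.38), and another, which is under the noise limit, was higher in KD3 at 0.62 (adjusted p = 3.0e-07).

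PGK1, the first enzyme of glycolysis that makes ATP, showed no difference past the threshold in any comparison by its main probe set. Its level ran from 13.14 to 13.36 in KD1, from 13.00 to 13.25 in KD2 and from 13.15 to 13.27 in KD3. KD3 minus KD1 was -0.030 ± 0.042 (adjusted p = 0.60). Here too the probe sets disagreed, since 3 of the 6 probe sets of PGK1 were higher in KD3 than in KD1, at 0.22, 0.17 and 0.97.

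HK2, a hexokinase that traps glucose in the cell, ran from 8.60 to 9.29 in KD1, from 8.46 to 9.42 in KD2 and from 8.65 to 9.01 in KD3. KD3 was lower than KD2 (-0.24 ± 0.077, adjusted p = 0.011), and its difference from KD1 did not pass the test (-0.15 ± 0.090, adjusted p = 0.16). Its 2 other probe sets, both under the noise limit, gave larger differences from KD1, of -0.61 and -0.77, that did pass.

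BNIP3, a receptor on mitochondria that directs them to autophagy, was highest in KD2. Its log2 level ran from 10.82 to 11.46 in KD1 (median 11.07), from 10.96 to 11.75 in KD2 (median 11.25) and from 10.48 to 10.96 in KD3 (median 10.82). KD3 minus KD2 was -0.49 ± 0.077 (adjusted p = 6.9e-07) and KD2 minus KD1 was 0.24 ± 0.070 (adjusted p = 0.0051). KD3 minus KD1 was -0.25 ± 0.090 (adjusted p = 0.018), a call that 1 array decided: without the CDC25B array of KD1 the adjusted p was 0.051, and without the STAT3 array of KD3 it was 0.071. The other probe set of BNIP3 did not pass in KD3 minus KD1 (-0.17, adjusted p = 0.086) or KD2 minus KD1 (0.018, adjusted p = 0.85).

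**Figure D1:**
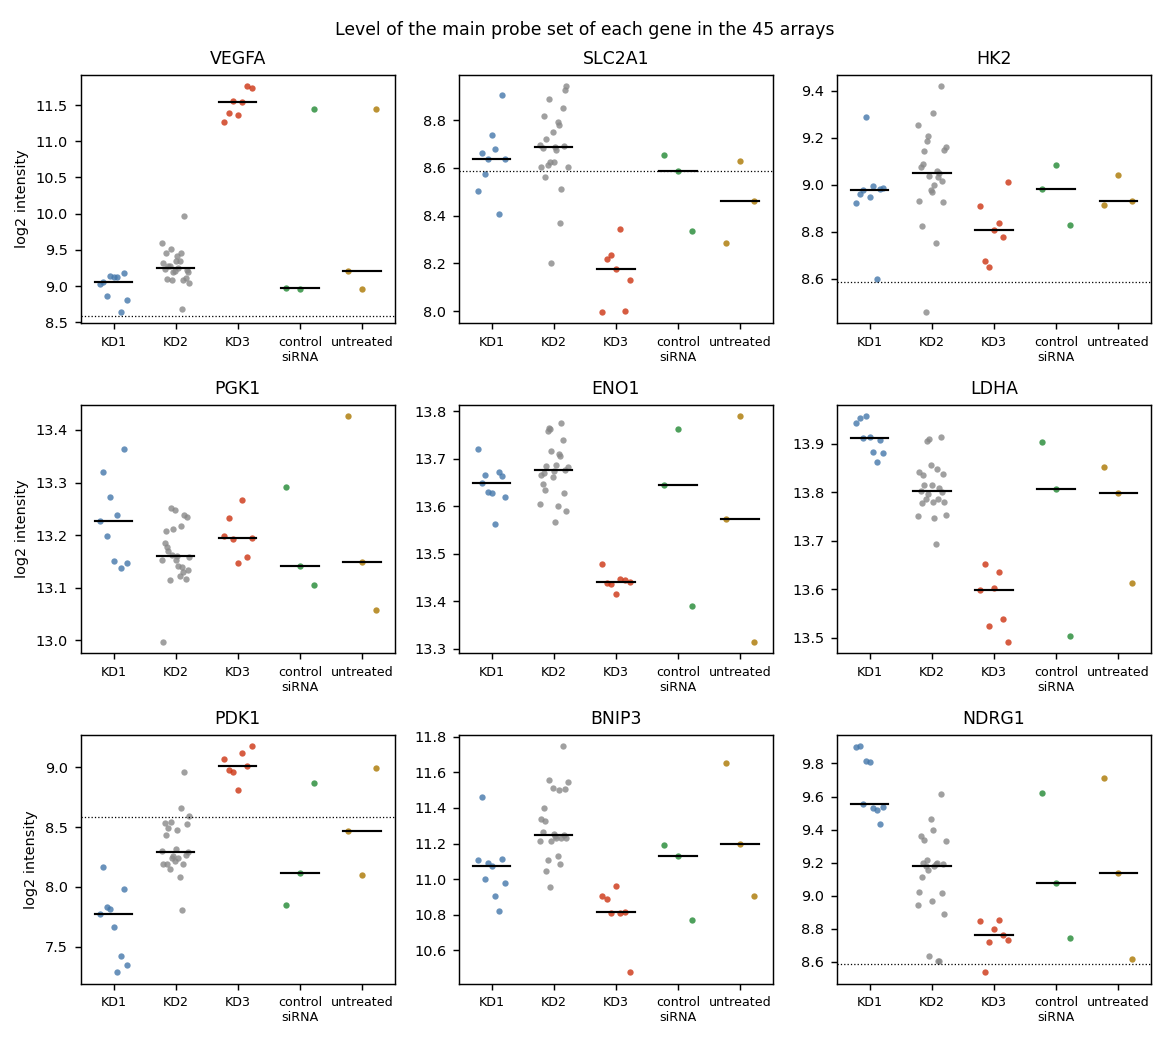
Log2 intensity of the main probe set of each of the 9 genes in every array, with the 9 arrays of KD1, the 23 of KD2, the 7 of KD3 and the 3 control siRNA and 3 untreated arrays in separate columns. Horizontal bars are medians and the dotted line is the noise limit of 8.59. The 7 arrays of KD3 lie above all of KD1 and KD2 for VEGFA and below them for ENO1 and LDHA.

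Counted over the 9 genes, KD2 minus KD1 had 3 higher and 2 lower, KD3 minus KD1 had 2 higher and 5 lower, and KD3 minus KD2 had 2 higher and 6 lower. Calls were common over the whole array. Of all 19775 genes, 22.9% were higher and 26.2% lower in KD2 minus KD1, 22.7% and 31.5% in KD3 minus KD1, and 20.5% and 27.0% in KD3 minus KD2. Of the 4800 genes above noise, 33.8% were higher and 33.2% lower in KD2 minus KD1, 34.7% and 42.0% in KD3 minus KD1, and 31.8% and 41.2% in KD3 minus KD2. The lower counts of KD3, 5 of 9 against KD1 and 6 of 9 against KD2, were larger shares than these, which was not tested with so few genes. The other counts were of the order of these shares. By size, the VEGFA difference in KD3 stood near the end of the range. The ranges of the arrays did not overlap for 0 of the 9 genes in KD2 against KD1, 6 in KD3 against KD1 and 3 in KD3 against KD2, where 7.68%, 27.9% and 17.6% of all genes had such ranges. The median difference over the 9 genes was 0.041, -0.20 and -0.24 in the 3 comparisons, beside -0.016, -0.057 and -0.031 over all genes. The 9 genes thus did not move one way: VEGFA and PDK1 were higher in KD3 while 5 others were lower. The beta-actin difference, the summed melanocyte markers and the single markers KRT14, LYZ and LUM, given above, moved with the same batches. Their part in these results was not tested.

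Some genes that control HIF differed between batches, in numbers of the order of the shares of all genes given below. Of the 8 genes of this list, 2 had a main probe set above the noise limit. HIF1A, the main alpha subunit, had a log2 level of 12.31 on average in KD1, 12.50 in KD2 and 12.72 in KD3, and was higher in KD3 than in KD1 by 0.41 ± 0.053 (1.33-fold, adjusted p = 8.3e-09) with no overlap. VHL, whose protein marks HIF alpha for destruction, was higher in KD3 than in KD1 by 1.35 ± 0.14 (adjusted p = 2.3e-11), and ARNT by 0.45 ± 0.11 (adjusted p = 0.00034). Both VHL and ARNT had a main probe set under the noise limit. Of all genes, 22.9% were higher and 26.2% lower in KD2 minus KD1, and 22.7% and 31.5% in KD3 minus KD1. In KD3 minus KD2 these shares were 20.5% and 27.0%. Of 8 genes that control HIF, 3 were higher and 1 lower in KD2 minus KD1 and in KD3 minus KD1, and 2 were higher and 1 lower in KD3 minus KD2. The lower one in both comparisons of KD3 was EGLN1, a prolyl hydroxylase, at -0.39 and -0.49, named here after its values were seen.

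Among 20 other targets of HIF, KD3 minus KD1 had 7 higher and 9 lower, with a median of -0.15. The largest differences were in both directions. DDIT4, an inhibitor of the growth kinase mTOR, was higher in KD3 by 1.76 ± 0.16 (3.38-fold, adjusted p = 1.2e-12). STC2, a secreted glycoprotein of the stanniocalcin family, was higher by 1.57 ± 0.096 (2.98-fold, adjusted p = 1.7e-18), although its probe set is under the noise limit. PFKFB3, which makes the strongest activator of phosphofructokinase, was 2.82-fold lower (-1.49 ± 0.076, adjusted p = 3.6e-21), and its 7 arrays in KD3 did not overlap those of KD1 or KD2. In KD2 minus KD1, 9 of the 20 were higher and 2 lower, and in KD3 minus KD2, 6 were higher and 9 lower. Over all genes, 22.9% were higher and 26.2% lower in KD2 minus KD1, and 22.7% and 31.5% in KD3 minus KD1. In KD3 minus KD2 these shares were 20.5% and 27.0%.

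The enzymes and transporters that carry the rest of glycolysis were more often lower than higher in KD2 and KD3 against KD1, as were all genes. Of 14 enzymes and transporters, 3 were higher and 8 lower in KD2 minus KD1 (median -0.28) and in KD3 minus KD1 (median -0.19), while KD3 minus KD2 had 6 higher and 4 lower (median 0.058). Of all genes, 22.9% were higher and 26.2% lower in KD2 minus KD1, and 22.7% and 31.5% in KD3 minus KD1. In KD3 minus KD2 these shares were 20.5% and 27.0%. PKM, the pyruvate kinase at the end of the pathway, had mean log2 levels of 13.32, 12.51 and 11.75 in KD1, KD2 and KD3, and the ranges of the 3 batches did not overlap. KD3 minus KD1 was -1.57 ± 0.065 (2.97-fold lower, adjusted p = 2.9e-24) and KD2 minus KD1 was -0.81 ± 0.051 (1.76-fold lower, adjusted p = 1.3e-17). ENO2, the enolase of neurons, was lower than in KD1 in both, at -0.71 ± 0.098 in KD3 and -0.80 ± 0.077 in KD2, under the noise limit. SLC2A3, which encodes the high-affinity glucose transporter GLUT3, was higher in KD3 than in KD1 by 1.51 ± 0.12 (2.86-fold, adjusted p = 4.0e-15) and than in KD2 by 1.11 ± 0.10 (2.17-fold, adjusted p = 5.4e-13), without overlap. The transporter SLC2A1 was lower in the same batch.

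A contrast of the same kind was present among the pyruvate dehydrogenase kinases. While PDK1 was higher in KD3 than in KD1, PDK4 was 2.34-fold lower (-1.23 ± 0.13, adjusted p = 2.6e-11), PDK2 1.82-fold lower (-0.86 ± 0.064, adjusted p = 1.1e-15) and PDK3 1.53-fold lower (-0.61 ± 0.086, adjusted p = 5.2e-08). All 4 kinases have their main probe set under the noise limit, and the arrays of KD3 and KD1 did not overlap for any of them. Of 11 genes of pyruvate dehydrogenase and of pyruvate entry into mitochondria, these kinases included and PDK1 left out, 5 were higher and 3 lower in KD2 minus KD1, 4 higher and 5 lower in KD3 minus KD1, and 1 higher and 5 lower in KD3 minus KD2. Their medians were 0.15, -0.013 and -0.042. Beside these counts, 22.9% of all genes were higher and 26.2% lower in KD2 minus KD1, and 22.7% and 31.5% in KD3 minus KD1. In KD3 minus KD2 the shares of all genes were 20.5% and 27.0%.

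**Figure D2:**
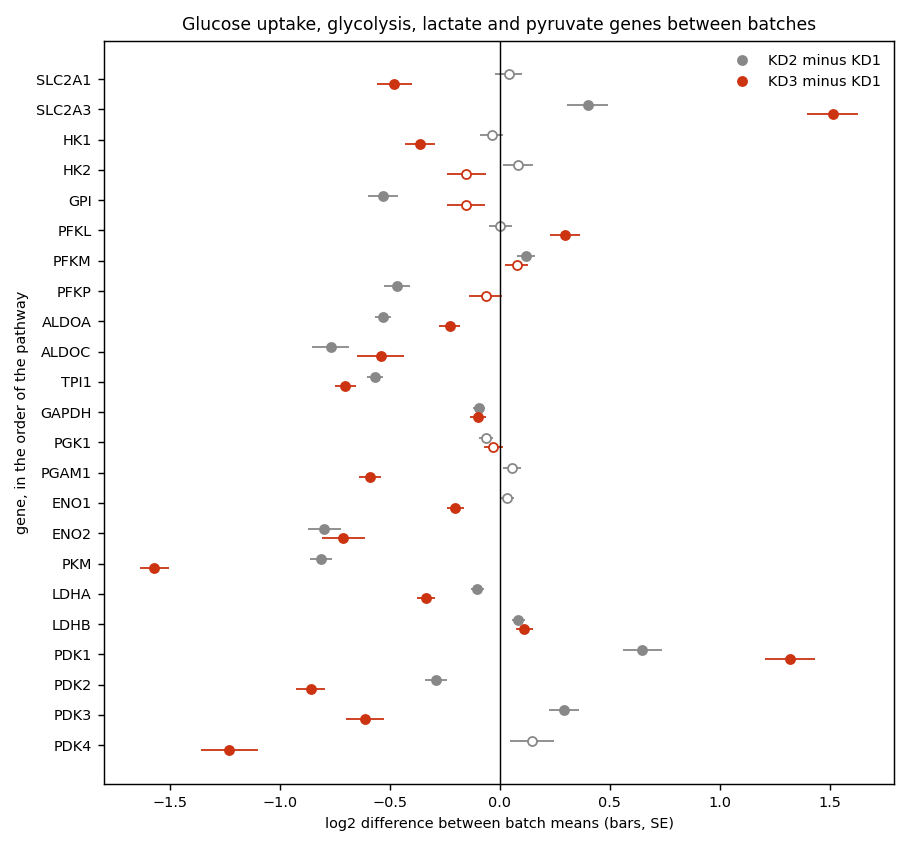
Log2 difference of batch means, KD2 minus KD1 in grey and KD3 minus KD1 in red, for genes of glucose uptake, glycolysis, lactate and the pyruvate dehydrogenase kinases in the order of the pathway. Bars are SE, filled points pass an adjusted p of 0.05 in limma and open points do not. SLC2A3 and PDK1 are the highest points and PKM and PDK4 the lowest, all in KD3 minus KD1.

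Against the rest of its batch, an array after 1 siRNA differed by less than 0.5 in most values of these genes. The measure is the log2 value less the median of the other arrays of the batch, with no test, since each siRNA has 1 array. Of the values of the 9 genes in 39 arrays, 9 were 0.5 or more in size, 3 up and 6 down, in 6 of the arrays, beside 1.54% of the values of all genes and 0.841% of those of genes above noise. LDHA, PGK1 and ENO1 varied least, within -0.17 and 0.15 of their batch in every array. VEGFA, NDRG1 and PDK1 varied most, with an SD within batches of 0.22, 0.22 and 0.23.

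The array after siRNA against PIK3CB, which encodes the beta catalytic subunit of PI3-kinase, stood highest. All 9 genes were above the median of the other 22 KD2 arrays, with a median of 0.38, while the median of all genes above noise in that array was 0.013. VEGFA was 1.65-fold the median of the others (0.73 on the log2 scale, 3.74 times the SD of those arrays), PDK1 was 1.61-fold (0.69, 3.48 SD) and BNIP3 was 1.42-fold (0.50, 3.0 SD). NDRG1 was 1.35-fold (0.44, 1.77 SD) and HK2 1.30-fold (0.38, 2.05 SD), and each of these 5 genes and LDHA (0.11, 2.24 SD) was the highest of the 23 arrays. SLC2A1 (0.17), PGK1 (0.079) and ENO1 (0.063) were above the median but not the highest. Of the 9 genes, 3 were up by 0.5 or more, beside 1.05% of all genes and 0.667% of genes above noise in that array.

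The other HIF targets were measured in the same PIK3CB array. Of the 20, 15 were above and 5 below the median of the other arrays (median 0.24), and 6 were up by 0.5 or more. In that array all genes above noise had a median of 0.013. Up by 0.5 or more were 1.05% of all genes and 0.667% of genes above noise. DDIT4 was 3.85-fold (1.94, 12.0 SD) and ADM, the vasodilator peptide adrenomedullin, 3.70-fold (1.89, 8.16 SD). ANKRD37 (0.80), ANGPTL4 (0.62), the histone demethylase KDM3A (0.60) and STC2 (0.51) were the others. No gene of this list was down by 0.5 or more. Of the 14 other glycolytic genes, 1, ENO2, was up by 0.5 or more (0.58), and of the 8 HIF control genes and the 11 genes of pyruvate dehydrogenase and pyruvate entry none was, with EGLN1 just under that limit at 0.4994 (1.41-fold, 5.05 SD). The genes ADM, ANKRD37, ANGPTL4, KDM3A and EGLN1 were named after their values were seen. ADM, ANGPTL4, STC2 and ENO2 had main probe sets under the noise limit. The beta-actin difference of the PIK3CB array was 1.54, inside the range of the others (1.09 to 2.08), and its summed melanocyte markers were 11.74, also inside the range of the others.

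The array after siRNA against MAP2K1, which encodes the kinase MEK1 of the MAP kinase pathway, was the lowest of KD2. Of the 9 genes, 8 were below the median of the other arrays (median -0.16), while the median of all genes above noise in that array was -0.034. VEGFA was 0.669 times the median of the others (-0.58, -2.76 SD) and the lowest of the 23 arrays, as was PDK1 (-0.49, -2.35 SD). NDRG1 was 0.670 times the median (-0.58, -2.38 SD) and SLC2A1 0.800 times (-0.32, -2.01 SD), each second lowest. The enzymes LDHA (-0.020), PGK1 (-0.022), ENO1 (0.030) and HK2 (-0.022) lay within 1 SD of the others. VEGFA and NDRG1 were the 2 genes down by 0.5 or more, beside 1.88% of all genes and 2.83% of genes above noise in that array. Of the 20 other HIF targets 15 were below the median. ANGPTL4, whose main probe set was under the noise limit, alone was down by 0.5 or more (-0.69). The beta-actin difference of this array was 1.33, inside the range of the others.

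**Figure D3:**
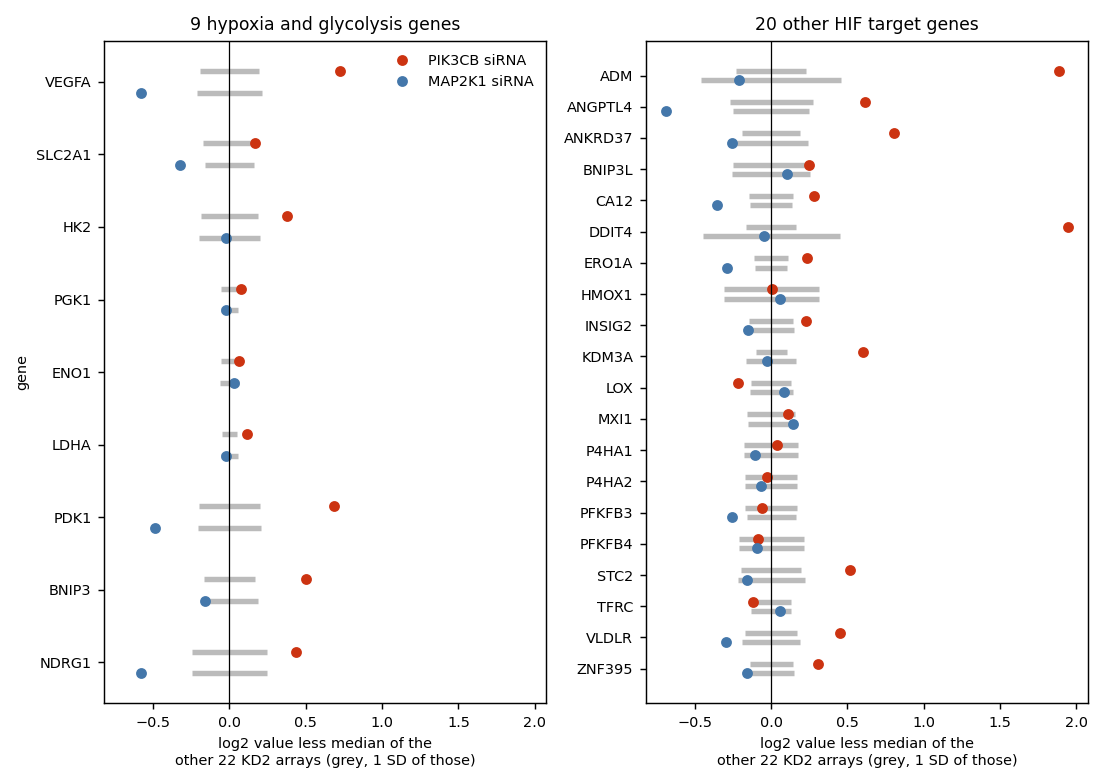
Log2 value less the median of the other 22 KD2 arrays for the 9 hypoxia and glycolysis genes (left) and 20 other HIF targets (right), in the array after PIK3CB siRNA (red) and after MAP2K1 siRNA (blue). Grey bars show 1 SD of the other arrays on each side of 0. DDIT4 and ADM reach 1.94 and 1.89 after PIK3CB siRNA, and VEGFA, PDK1 and NDRG1 lie on opposite sides of 0 in the 2 arrays.

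Other arrays differed less or in fewer genes. After siRNA against PCNA, the sliding clamp of DNA replication, 8 of the 9 genes were below the median of the other KD1 arrays, with the lowest median of the 39 arrays (-0.24). The median of all genes above noise in the PCNA array was -0.0455. VEGFA (-0.45, -3.29 SD), HK2 (-0.38, -3.27 SD), BNIP3, SLC2A1, PGK1 and LDHA were each the lowest of the 9 arrays of KD1. After siRNA against CDK4 all 9 genes were above the median of the KD2 arrays, by a median of 0.14, none of them by 0.5 or more. The same held after siRNA against HDAC3, by a median of 0.058. All genes above noise had a median of 0.0043 in the CDK4 array and -0.042 in the HDAC3 array. Below the median for 8 of the 9 genes were also the TCEA1 (-0.084), RBL2 (-0.039) and GABARAP (-0.018) arrays, with their medians given. All genes above noise had medians of -0.061, 0.025 and -0.0007 in these arrays, in that order. After siRNA against RB1 the median was 0.081, the third highest, and the beta-actin difference of that array was 1.76, above the range of the other KD1 arrays (1.01 to 1.54). The AKT1 array, the third lowest (-0.087), held the lowest PGK1 of KD2 (-0.17, -3.75 SD).

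Among arrays of other regulators with a textbook link to HIF or glycolysis, BNIP3 after siRNA against STAT3 stood out (-0.38, -5.87 SD of the other KD3 arrays). LDHA of the same array was also the lowest of KD3 (-0.11, -2.13 SD), while its HK2 (0.22) and PDK1 (0.18) were the highest. After siRNA against SP1, VEGFA was the highest of KD3 (0.30, 1.81 SD). After siRNA against MITF, PDK1 was the lowest of KD3 (-0.23, -2.77 SD), as were PGK1 (-0.050) and ENO1 (-0.028), and BNIP3 was the highest (0.15). Every gene has a highest and a lowest array among the few of KD3. The STAT3 array had the highest beta-actin difference of KD3 (0.66, others 0.51 to 0.60) and the highest summed melanocyte markers (10.96, others up to 10.95), and the MITF array the lowest beta-actin difference (0.51, others from 0.56). Their part in these values was not tested. In the RELA and FOXO3A arrays none of the 9 genes was the highest or lowest of its batch, and the largest values were 0.26 for BNIP3 and 0.26 for NDRG1.

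Large values in single genes were few. They were HK2 after siRNA against the kinase chaperone CDC37 (-0.60, -3.87 SD), NDRG1 after siRNA against NMI (-0.58) and CEBPD (-0.55), and PDK1 after siRNA against HSF2 (-0.51). The NMI array had the lowest beta-actin difference of KD2 (1.09, others from 1.17), and its part was not tested. In the CEBPD array SLC2A1 also had its lowest difference of the 39 arrays (-0.49).

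**Figure D4:**
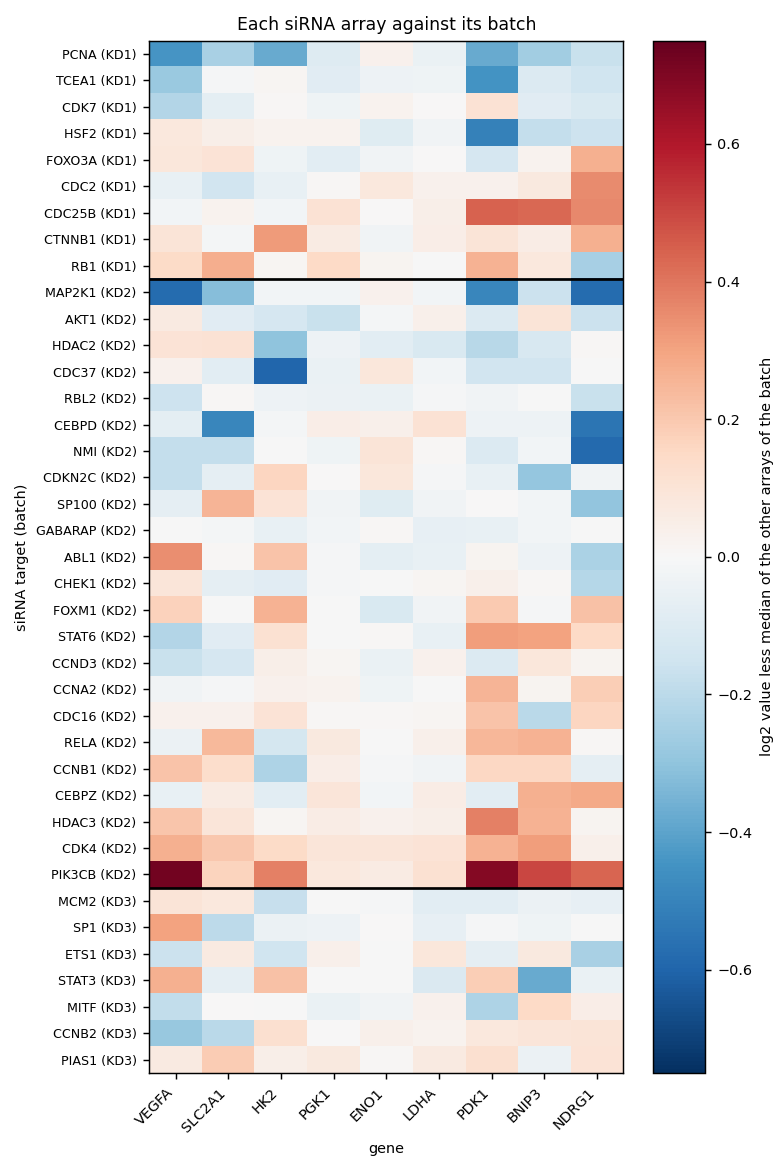
Log2 value of each gene (columns) less the median of the other arrays of its batch, for the 39 siRNA arrays (rows) grouped by batch and ordered by their median over the 9 genes. Red is above and blue below the batch, on a scale of -0.75 to 0.75. The PIK3CB, CDK4 and HDAC3 rows are above the batch for all 9 genes. The MAP2K1, PCNA, TCEA1, GABARAP and RBL2 rows are below it for 8.

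Over the 39 siRNA arrays, each gene centred on its median in its batch, the genes were related to one another weakly in most pairs. Spearman's rho had a median of 0.30 over the 36 pairs of the 9 genes, beside 0.037 over all pairs of genes above noise, and was above 0 in 33 of the 36 pairs. It was 0.5 or more in 4 pairs, beside 1.71% of all pairs of genes above noise. These values are a description with no test, since arrays of a batch share their handling. The 4 pairs were PGK1 with PDK1 (rho 0.66, Pearson's r 0.58), LDHA with BNIP3 (0.56, 0.58), LDHA with PGK1 (0.53, 0.46) and PDK1 with BNIP3 (0.51, 0.62). With the 2 arrays most extreme in the former gene of each pair left out, r was 0.63, 0.50, 0.41 and 0.51 in that order.

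The relations were not equal in the batches. PGK1 with PDK1 had a rho of 0.65 in KD1, 0.63 in KD2 and 0.57 in KD3, whereas PDK1 with BNIP3 had 0.83, 0.57 and -0.54. Within the arrays of KD2 alone 10 of the 36 pairs were at 0.5 or more. The share of all gene pairs within KD2 was not computed, so this count has no reference. VEGFA was closest to SLC2A1 among the 9 genes (rho 0.48), with 0.73 in KD1, 0.57 in KD2 and 0.071 in KD3. VEGFA and SLC2A1 also had a rho of 0.40 and 0.49 with the beta-actin difference of the arrays, and ENO1 had -0.44, while the other 6 genes had 0.024 to 0.20. The part of RNA quality in these relations was not tested. ENO1 had its lowest rho with SLC2A1 (-0.30) and its highest with LDHA (0.30).

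**Figure D5:**
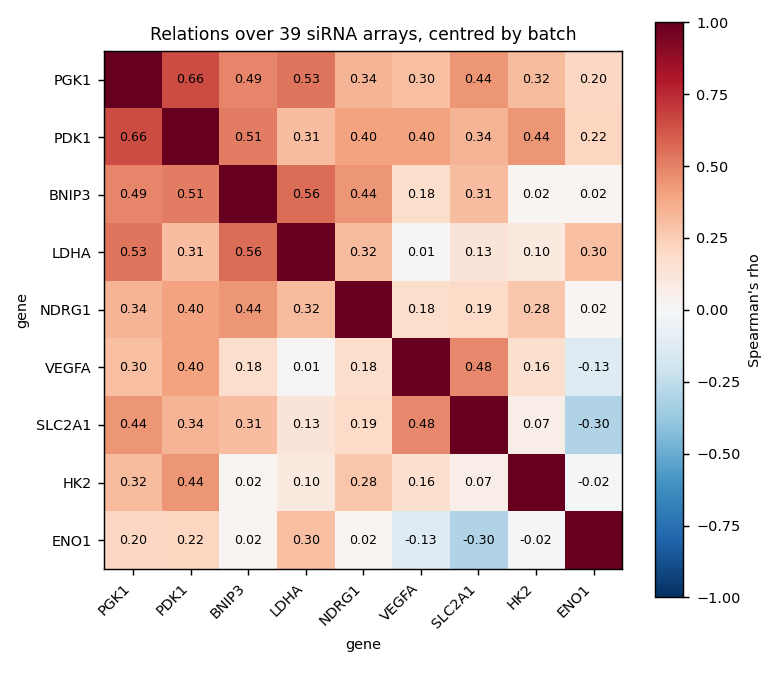
Spearman's rho between the 9 genes over 39 siRNA arrays, each gene centred on its median in its batch. PGK1, PDK1, BNIP3 and LDHA hold the 4 pairs at 0.5 or more, and ENO1 is the least related to the others.

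The genes above noise most like each of the 9 were mostly outside the lists used here. VEGFA was most like HSPA13, whose rho of 0.80 was the highest for any of the 9 genes, followed by KLF10 (0.70) and PPP1R15B (0.65). SLC2A1 was most like ZDHHC16 (0.62), YY1AP1 (0.60) and ANKRD37 (0.60), the last a listed HIF target. LDHA was most like IGFBP3 (0.60), RAB38 (0.57) and BNIP3 (0.56), and BNIP3 was most like LDHA, AK4 (0.51) and PGK1 (0.49). For PGK1 the nearest were PGM1 (0.60), COPS8 (0.58) and CHMP5 (0.56), and for PDK1 they were AGGF1 (0.66), PGK1 and MIS12 (0.60). ENO1 was nearest to FKBP1A (0.66), MT1G (0.61) and RAB8A (0.59). HK2 was nearest to NID1 (0.59), ARHGAP17 (0.58) and SPTBN1 (0.56), and NDRG1 to PELO (0.61), WDR45 (0.56) and ARNT2 (0.54).

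The sequences before the starts of PGK1, PDK1, LDHA and BNIP3 are shown because these genes hold the 4 pairs that moved most together. HIF binds the core ACGTG or GCGTG in DNA. Both were searched on both strands in the 250 bases before each start that RefSeq gives (GRCh38.p14), and 7 of the 9 genes matched the table of starts. A full CACGTG, which other factors also bind, holds the core on each strand and counts as 2 matches. Of 35116 such windows of all genes, 43.2% held at least 1 match and 19.4% held 2 or more. Capitals mark the matches, and each sequence runs 5′ to 3′ in the direction of its gene.

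PGK1, chrX:78103998-78104247, plus strand, with 3 matches: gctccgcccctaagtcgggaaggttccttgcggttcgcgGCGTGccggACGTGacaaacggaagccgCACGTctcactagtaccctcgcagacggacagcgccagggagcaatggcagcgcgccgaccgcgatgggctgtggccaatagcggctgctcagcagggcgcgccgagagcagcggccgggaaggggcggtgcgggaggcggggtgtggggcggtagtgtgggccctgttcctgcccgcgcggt

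PDK1, chr2:172555840-172556089, plus strand, with 2 matches: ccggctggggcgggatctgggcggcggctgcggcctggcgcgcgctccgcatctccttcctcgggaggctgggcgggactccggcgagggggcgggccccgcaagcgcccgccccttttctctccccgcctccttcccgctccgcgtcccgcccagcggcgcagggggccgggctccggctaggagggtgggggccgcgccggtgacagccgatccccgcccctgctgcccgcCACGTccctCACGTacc

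PDK1, an earlier start, chr2:172555123-172555372, plus strand, with 0 matches: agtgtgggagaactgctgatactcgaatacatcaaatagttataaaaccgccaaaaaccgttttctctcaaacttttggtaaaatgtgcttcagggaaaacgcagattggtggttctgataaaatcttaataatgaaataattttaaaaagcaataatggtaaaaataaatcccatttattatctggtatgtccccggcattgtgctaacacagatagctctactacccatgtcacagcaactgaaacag

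LDHA, chr11:18394313-18394562, plus strand, with 5 matches: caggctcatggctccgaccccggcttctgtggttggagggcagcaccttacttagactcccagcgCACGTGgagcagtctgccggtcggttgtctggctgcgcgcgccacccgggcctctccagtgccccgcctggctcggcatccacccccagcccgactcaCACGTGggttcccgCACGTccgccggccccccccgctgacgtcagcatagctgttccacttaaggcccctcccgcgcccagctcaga

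LDHA, a later start, chr11:18396101-18396350, plus strand, with 1 match: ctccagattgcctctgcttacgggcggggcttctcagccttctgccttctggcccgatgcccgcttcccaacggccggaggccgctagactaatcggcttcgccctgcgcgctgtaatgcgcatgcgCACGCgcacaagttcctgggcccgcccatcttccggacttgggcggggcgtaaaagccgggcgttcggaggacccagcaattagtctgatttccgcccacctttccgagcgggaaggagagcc

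BNIP3, chr10:131981924-131982173, minus strand, with 6 matches: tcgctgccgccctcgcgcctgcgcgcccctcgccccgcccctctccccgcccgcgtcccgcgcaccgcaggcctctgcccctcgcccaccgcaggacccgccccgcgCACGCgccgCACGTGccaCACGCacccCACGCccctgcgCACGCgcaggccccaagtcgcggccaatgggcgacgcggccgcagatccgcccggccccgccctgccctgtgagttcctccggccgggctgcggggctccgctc

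All 4 genes held a match before at least 1 of their starts, as did HK2 (3 and 6 matches before its 2 starts) and ENO1 (2), whereas the window of SLC2A1 held 0. The 43.2% given above is a share of single windows, while PDK1, LDHA and HK2 have 2 windows each. The share of genes with a match before any start was not computed, so this count of genes has no reference. HK2 and ENO1 held matches without being among the 4 pairs. A match is a run of letters in these windows and no measure of binding.

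Control siRNA was set against no treatment to measure what transfection itself does to these genes. None of the 9 genes and none of the 54675 probe sets (0%) passed an adjusted p of 0.05 in limma, and 97 probe sets had an unadjusted p under 0.05. The arrays untreated 3 and control siRNA 3 stood apart as near copies of each other. Their values differed by at most 10% for all 54675 probe sets, whereas any other pair of arrays had at most 62.0% of values that close. The ratios between them were evenly spread over that range: each of 10 equal steps of it held 9.83% to 10.3% of the probe sets. It was not established that they are separate measurements of both groups, so their values are given as listed. The level of VEGFA was 8.98, 8.96 and 11.45 in control siRNA arrays 1 to 3 and 9.21, 8.96 and 11.45 in untreated arrays 1 to 3. The near copies thus were listed at about the level of KD3, and the other 4 arrays were within the range of KD1 and KD2. PDK1 was also highest in the near copies (7.85, 8.12 and 8.87, against 8.46, 8.10 and 8.99), and NDRG1 was lowest there (9.62, 9.08 and 8.74, against 9.71, 9.14 and 8.62).

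This spread within groups set the precision of the comparison. The difference of control siRNA from untreated was -0.077 ± 0.88 for VEGFA (SE), -0.24 ± 0.32 for PDK1 and -0.22 ± 0.22 for BNIP3. Leaving out control siRNA 3 alone made it -0.90 for VEGFA and leaving out untreated 3 alone made it 0.71. Without both near copies it was -0.11 for VEGFA and -0.26 for BNIP3, and again none of the 9 genes passed. LDHA (-0.017 ± 0.15), PGK1 (-0.031 ± 0.14) and ENO1 (0.040 ± 0.17) had smaller errors. Differences within such errors were not detectable with 3 arrays a group.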

How the data were processed

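Total RNA of A375 cells was hybridised to Affymetrix U133 plus 2.0 arrays. The authors normalised the scans with Robust Multichip Averaging (RMA, version not given in the sources used here), and the values they deposited are linear intensities per probe set, still unscaled for batch. The log2 of these intensities was used with no further normalisation.

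A probe set took a gene name where the platform table gave it 1 (41097 of 54675, with 1801 given several and 11777 none). The noise limit was 1.5 times the median intensity of the BioB spike-in at its 3' end. Arrays have no read depth, and signal over this limit bounds precision. Batches were read from the study by target name.

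Batches were compared in 1 limma fit (version 3.58.1, R 4.3.3) over all probe sets of the 39 siRNA arrays, and control siRNA with untreated in another, with Benjamini-Hochberg adjustment and a threshold of 0.05. Arrays of the same number in the titles deviated together from their group means (r = 0.580 and 0.671 for numbers 1 and 2). The 0.890 of number 3 is between near copies and is no evidence of pairing, and without them the differences of array 1 from array 2 in both groups had r = 0.387. A pairing by number was not established. Replicate arrays are not stated to be separate cultures, so p-values measure the spread between arrays. Each batch is present once, so the p-values do not measure whether a difference between batches would recur. Other values come from Python 3.11.15, numpy 2.4.6 and pandas 2.3.3. The fit was tested on simulated data.

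The 10 genes and all other lists were chosen with earlier results of these data known. Named besides them are the 3 genes of each list with the largest called KD3 minus KD1 difference, the 3 genes most like each gene, 8 siRNA arrays linked to HIF or glycolysis, and the 3 highest and 3 lowest arrays by median. The HDAC3, TCEA1, RBL2, GABARAP, CDC37, NMI, CEBPD, HSF2, CDC25B and ETS1 arrays were named after their values were seen. Alternatives varied the probe set, scaling, filter, offset, weights and arrays used.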

Additional observations from a re-analysis of the deposited data

Results flagged for a closer look

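In 18 sets of arrays (each of the 9 genes in KD1 and in KD3), 3 held an array far from the rest by Dixon's test of the largest gap, which chance gives in about 1 of 20 sets. BNIP3 after siRNA against CDC25B was at 11.46 on the log2 scale, above the next of the 9 KD1 arrays at 11.12. BNIP3 after siRNA against STAT3 was at 10.48, below the next of the 7 KD3 arrays at 10.81. These are the arrays without which the lower BNIP3 of KD3 against KD1 no longer passed the test. NDRG1 after siRNA against ETS1 was at 8.54, below the next KD3 array at 8.72.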

How the results depend on the processing

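LDHA and NDRG1 have 1 probe set each. With the next brightest probe set of the other 7 genes in place of the main one, KD2 minus KD1 had 3 genes called, 1 of them lower, and KD3 minus KD1 had 2 lower, where ENO1 and BNIP3 lost their call and HK2 gained one. KD2 minus KD1 then turned to -0.16 for VEGFA (adjusted p = 0.020) and 0.17 for PGK1, and KD3 minus KD1 to 0.22 for PGK1. With the mean of all probe sets, VEGFA turned to -0.10 in KD2 minus KD1, and in KD3 minus KD1 PGK1 turned to 0.21 (adjusted p = 0.00033) and ENO1 to 0.13. Centred on probe sets above noise, KD2 minus KD1 had 1 gene lower. With only those probe sets tested, which leaves out PDK1, KD3 minus KD1 and KD3 minus KD2 each had 1 gene higher. Against the control siRNA arrays, which include the near copy with its high VEGFA, 58 values of siRNA arrays were 0.5 or more in size, in place of 9. In KD2 alone 10 pairs reached a rho of 0.5. Without the PIK3CB and MAP2K1 arrays, a choice made after seeing the data, 3 did. With the replicate block, control siRNA minus untreated was -0.077 for VEGFA, and 0 of the 9 genes were called under every alternative run. VEGFA in KD3 kept its direction and its call under all alternatives run. Leaving out 1 array at a time gave 2.47 to 2.56 for VEGFA in KD3 minus KD1, with 6 to 7 of the 9 genes called there, 5 in KD2 minus KD1 and 8 in KD3 minus KD2. Signal near the noise limit restricts what can be said of PDK1, SLC2A1 in KD3 and the weaker probe sets.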
